A study of Gallus gallus with 4 samples.

Results

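In cranial headfolds of chick embryos, 338 genes had at least 2 times as many scaled counts after ethanol as after saline, in every pairing of lanes. They were chosen by that difference itself. For each gene, the counts of its exon parts were summed and scaled to 1000000 non-mitochondrial counts of the lane, a unit written CPM. A gene was kept when it had 100 or more counts over the 4 lanes and when the lower of its ethanol values reached 2 times the higher of its saline values. Genes on chromosomes MT, Z and W, genes with a span of 300000 bases or more, genes with 1 exon part, identifiers that combine overlapping genes and genes in the authors' table of exons with altered usage were left out. This left 10962 eligible genes of 24513 identifiers, and the 338 genes were 3.08% of them. Every value of the ethanol and saline comparison given for these genes is thus a description, without a test.

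The embryos were Gallus gallus of the strain Special black, incubated for 27 hr to 3-4 somites and labelled Hamburger-Hamilton stage 8-9. The sources differ on the stage, since the study's methods give a somite range that reaches later. They had received 0.43 mmol ethanol or isotonic saline. By the study's methods, a recovery period followed, and the headfolds were collected some hours after the exposure began. Headfolds were pooled by 23, and mRNA was isolated with poly-T beads before random hexamer priming. Each group comprised 2 sequencing lanes of paired-end reads. The saline lanes (6 and 7) were sequenced in one run and the ethanol lanes (5 and 6) in another, so that the treatment and the run cannot be told apart. The labels name lanes and do not say whether those of a group hold separate pools. The study's table legends speak of both pooled samples of each group, without tying these to lanes.

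The cranial headfold is the rising anterior neural plate with the tissue beneath it. It forms the brain and gives rise to the cranial neural crest, whose cells migrate out to build much of the face. Alcohol at these stages is known to cause facial and brain deficits in the chick, with death of cranial neural crest cells as one of its described effects. In poly-T selected RNA, a gene's level depends on how fast its transcript is made and how fast it is lost. In pooled tissue, fewer cells of a type and less RNA per cell cannot be told apart.

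None of the 338 identifiers matched an entry of the gene table used here, which is for a later assembly. The genes are therefore given by position in Gallus gallus 5.0, with 2 identifiers only: the gene with the highest ratio and the gene with the most counts. For the same reason the tissue could not be checked against marker genes, no pathway list could be applied, and no sequence is shown.

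The saline lanes held 20951322 and 20861872 counts and the ethanol lanes 15388474 and 16991925. Mitochondrial genes held 44.2% of the counts in both saline lanes and 33.3% and 32.9% in the ethanol lanes, and the part of this shift in the results was not tested beyond the scalings given at the end. The non-mitochondrial totals were 11680918 and 11646499 in saline and 10264539 and 11397274 in ethanol. A floor of 3 counts was 0.257 to 0.292 CPM per lane. The saline lanes differed by no more than sampling noise (chi-square per degree of freedom of 1.04 over 16862 genes, against a limit of 1.1) and count as 1 sample, whereas the ethanol lanes differed by more (5.68 over 16910 genes). An exact two-sided permutation test of 2 against 2 lanes could give no p below 0.333. The intervals of folds are 95% exact counting intervals and cover counting error only, not differences between embryos or pools.

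Summed over the 338 genes, the level was 3167 and 3192 CPM in the saline lanes and 8000 and 7789 CPM in the ethanol lanes. The summed level was thus 2.48 times as high in ethanol. Per gene, the median level was 4.62 and 4.59 CPM in saline and 12.6 and 12.3 CPM in ethanol. The other eligible genes had medians of 22.4 and 22.7 CPM in saline and 24.2 and 25.3 CPM in ethanol. The chosen genes therefore stood below the other genes in all 4 lanes, and nearer to them in ethanol. That they were nearer in ethanol follows from the rule, and their low level in saline follows from it in part. Per kilobase of exon parts, their medians were 2.47 and 2.48 CPM in saline and 6.76 and 6.32 CPM in ethanol, against 11.9 to 13.3 CPM for the other genes over the 4 lanes.

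Most of the genes lay close above the threshold. The ratio of the lower ethanol to the higher saline lane had a median of 2.24 and ran from 2.00 to 8.67. It was below 2.5 in 266 genes, from 2.5 to 3 in 50, from 3 to 4 in 18 and 4 or more in 4. Just inside the threshold, 86 genes had a ratio from 2 to 2.1, and just outside it 94 genes had a ratio from 1.9 to 2. Nearest inside, a gene at chr2:131549781-131579894 had 3.596 and 2.49 CPM in saline and 8.28 and 7.19 CPM in ethanol. A gene of 115 counts at AADN04002295.1:13311-15479 had the same ratio, 2.001. The nearest gene outside, at chr2:26317033-26546888, had 1.80 and 1.97 CPM in saline and 5.36 and 3.95 CPM in ethanol, a ratio of 1.999. In the gene outside, 1 count more in ethanol lane 6 would have met the ratio, so the border rests on single counts. The opposite rule, a higher ethanol lane at or below the lower saline lane divided by 2, was met by 28 eligible genes (0.255%). These were counted with this scaling only, under which the median log2 fold of ethanol over saline of all eligible genes was 0.10. That median was 0.01 with TMM factors, -0.01 with the size factors of DESeq2 and 0.36 with CPM over all counts. The numbers of doubled and of halved genes both depend on such a shift, so their difference in size was not tested.

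**Figure D1:**
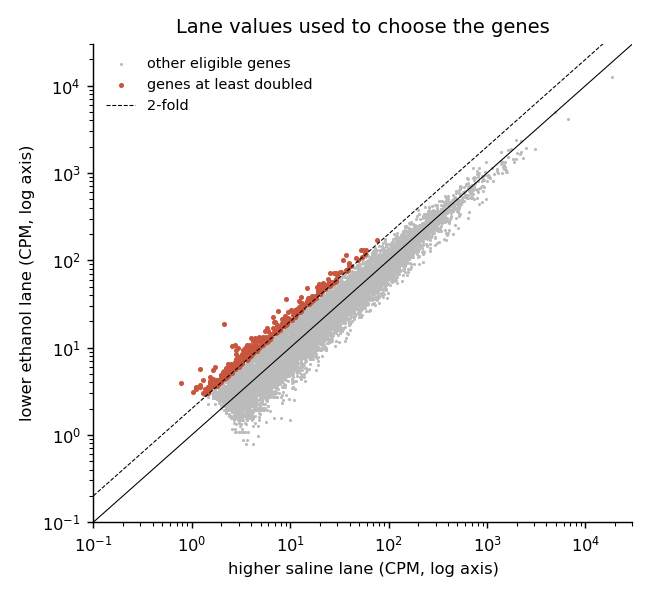
Level of each eligible gene in its higher saline lane (x axis, CPM, log axis) and its lower ethanol lane (y axis, CPM, log axis), with the line of equal levels (solid) and of 2-fold (dashed). The 338 chosen genes (red) lie on or above the dashed line, most of them close to it and toward the lower levels, and the other 10624 genes (grey) lie below it.

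With the lanes of each group summed, the fold of ethanol over saline had a median of 2.52 over the 338 genes and ran from 2.03 to 11.4. On the log2 scale the median was 1.34, against 0.10 over all eligible genes, a difference of 1.24. The lower bound of the interval lay above 1.5 in 336 genes and above 2 in 193. The doubling of the remaining genes was thus within counting error of a smaller fold. The intervals rest on the counts by which the genes were chosen, so a bound above 2 is a description and no support for a doubling. In the other eligible genes the fold had a median of 1.06.

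The count minimum could be reached through the ethanol lanes, where these genes were high. The summed saline counts of the 338 genes ran from 17 to 1766 with a median of 109, and 62 genes (18.3%) had fewer than 50 counts in saline. None had fewer than 50 in ethanol, where the summed counts ran from 72 to 3763. Over all 4 lanes, 76 genes had fewer than 200 counts and 77 had 1000 or more. No gene was at 0 in any lane, and the fewest counts were 6 and 7 in the saline lanes and 30 and 38 in the ethanol lanes. Among the genes under the minimum of 100 counts that nothing else left out, 415 of 4392 met the ratio with at least 1 count in each ethanol lane, of which 200 were at 0 in a saline lane and 215 were not. The 338 genes are therefore not all genes that were doubled.

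The member with the highest ratio was ENSGALG00000045816 (chr24:250513-259541, minus strand, 22 exon parts). It had 19 and 25 counts in the saline lanes and 191 and 275 counts in the ethanol lanes. Its level was 1.63 and 2.15 CPM in saline and 18.6 and 24.1 CPM in ethanol. The groups were far apart, with a ratio of 8.67 and a fold of 11.4 (interval 8.36 to 15.9). The ethanol lanes also differed from each other by 0.37 on the log2 scale, lane 6 being the higher (exact binomial test, adjusted p = 0.0306). With lanes summed, all 16 of its exon parts with 10 or more counts were at least doubled, and 2 of these had no count in saline. The fold was 11.2 over the 5' exon parts and 11.6 over the 3' exon parts, when the gene was divided in the middle of its list of exon parts. The fold was thus similar toward both ends of the gene.

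The member with the most counts was ENSGALG00000042443 (chr2:26692065-26730200, minus strand, 43 exon parts). It had 894 and 872 counts in the saline lanes and 1838 and 1925 counts in the ethanol lanes. Its level was 76.5 and 74.9 CPM in saline and 179 and 169 CPM in ethanol, with a ratio of 2.21 and a fold of 2.29 (interval 2.17 to 2.43). Unlike in the first gene, the fold was larger at the 5' end. The 5' exon parts together had 760 counts in saline and 2128 in ethanol, a fold of 3.02. The 3' exon parts had 1006 and 1635, a fold of 1.75, and would not have met the rule. Of its 29 exon parts with 10 or more counts, 28 were higher in ethanol and 20 were at least doubled, while 11 of the 43 had no count in any lane. Its most counted exon part, number 16 from the 5' end, had 167 and 156 counts in saline and 362 and 427 in ethanol. Its last exon part had 119 and 121 counts in saline and 178 and 180 in ethanol, a fold of 1.61.

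**Figure D2:**
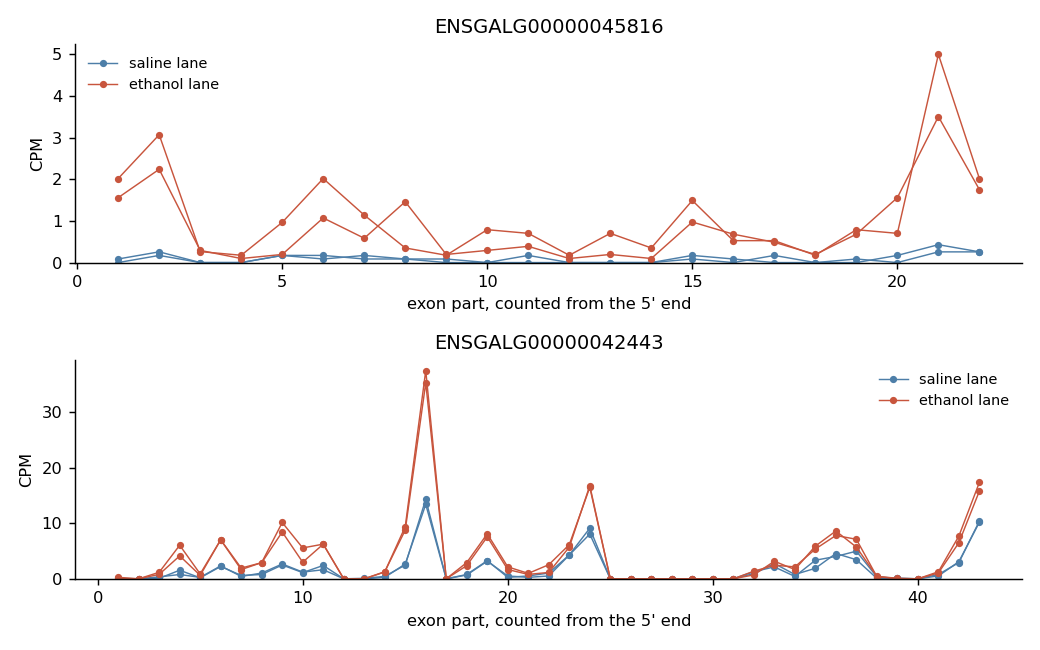
CPM of each exon part (y axis) in the order of the exon parts from the 5' end (x axis) for ENSGALG00000045816 (top) and ENSGALG00000042443 (bottom), with a line for each of the 2 saline lanes (blue) and the 2 ethanol lanes (red). With lanes summed, ethanol is above saline at all 16 exon parts with 10 or more counts in the top gene and at 28 of 29 in the bottom gene, where the widest gap is at exon part 16.

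Of the other genes with high ratios, the next at chr1:108079422-108081075 had 9 and 8 counts in saline and 40 and 46 in ethanol, a fold of 5.45 (interval 3.21 to 9.78). At chr1:137769210-137885823, 9 and 14 counts stood against 59 and 75, a fold of 6.27 (interval 4.01 to 10.2). At chr1:146127088-146275409, 22 and 30 counts stood against 106 and 118, a fold of 4.64 (interval 3.42 to 6.40). The intervals of these 3 genes overlapped, so their order among themselves is not set by these counts. The gene with the fifth highest ratio, at chr12:10969859-11019295, had more counts, with 99 and 106 in saline and 407 and 412 in ethanol. Its fold was 4.30 (interval 3.69 to 5.04). The genes ranked 6 to 10 by ratio lay on chromosomes 9, 27, 1, 3 and 1, with folds from 3.81 to 5.02. Of the 10 highest ratios, 5 genes lay on chromosome 1. That chromosome held 66 of all 338 chosen genes and 1270 of the 10962 eligible genes. The count among the 10 was not tested.

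Per kilobase of exon parts, the most abundant member in ethanol lay at chr15:4518239-4520623, a gene of 3 exon parts. It had 51.8 and 56.1 CPM per kilobase in saline and 112 CPM per kilobase in both ethanol lanes, a fold of 2.08 (interval 1.946 to 2.23). The next, at chr18:7872473-7878562, had 30.5 and 32.2 CPM per kilobase in saline and 71.8 and 73.9 in ethanol. Below it, the gene at chr1:141049589-141090557 had 18.8 and 19.7 CPM per kilobase in saline and 49.6 and 48.1 in ethanol. In each of these genes the lanes of a group lay nearer to each other than to the other group, as the plot of lane values shows for all 10. The choice of the genes fixed the gap between the groups and favoured lanes that lie close together. The 10 most abundant members had folds from 2.08 to 2.64, and none of them was among the 10 highest ratios. Only 14 of the 338 genes exceeded the median level per kilobase of the other eligible genes in saline, and 88 did in ethanol. The larger number in ethanol follows from the rule.

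**Figure D3:**
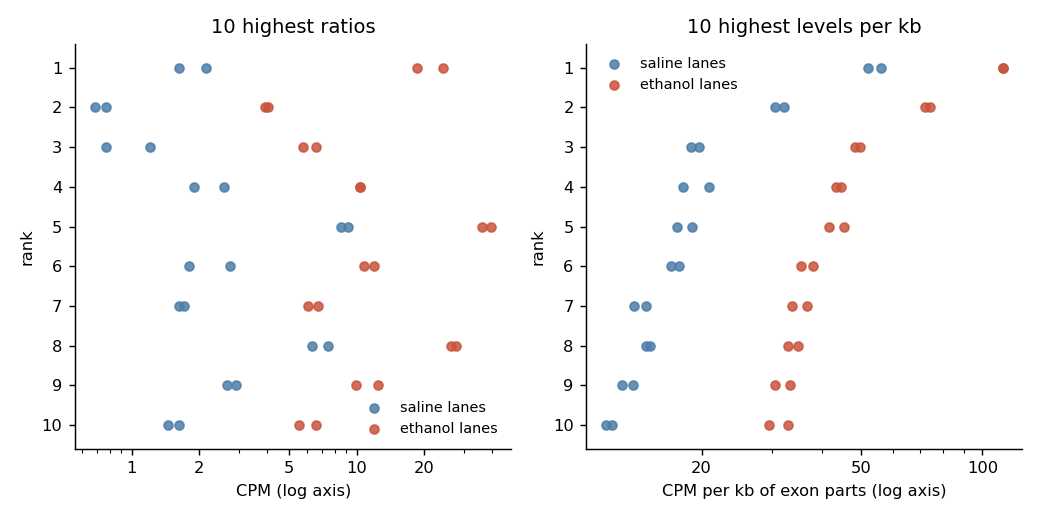
Level in each of the 2 saline lanes (blue) and 2 ethanol lanes (red) for the 10 members with the highest ratio (left, CPM, log axis) and the 10 with the highest level per kilobase of exon parts in ethanol (right, CPM per kilobase, log axis), in order of rank from the top. The groups do not overlap in any gene, which the choice of the genes fixed, and the gap between groups is widest for the gene at rank 1 on the left.

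The lanes of a group were also compared with each other. The rule takes the lower ethanol and the higher saline lane, so a gene whose lanes differed was less likely to be chosen, and the values of the chosen genes in this comparison are a description. A two-sided exact binomial test per gene was run over 13562 genes with 100 or more counts, with Benjamini-Hochberg adjustment and a limit of 0.1. It compares libraries, not conditions. Between the ethanol lanes, 28.1% of all tested genes differed, 1590 of them higher in lane 5 and 2219 higher in lane 6. Of the 338 genes, 21 (6.21%) did, 16 of them higher in lane 5 and 5 higher in lane 6, and 28 had an unadjusted p under 0.05. Between the saline lanes, 0.00737% of all tested genes differed (1 gene) and none of the 338, of which 11 had an unadjusted p under 0.05. The share among the 338 genes cannot be read against that of all tested genes, as the rule favours lanes that lie close together. Fewer counts also make a difference harder to detect, and these genes had a median of 381 counts against 1079.5 for the other eligible genes. The median absolute difference between lanes was 0.12 on the log2 scale in ethanol and 0.14 in saline for the 338 genes, and 0.15 and 0.08 for all tested genes. The widest difference between the lanes of a group in any of the 338 genes was 0.78 in ethanol and 1.04 in saline, beside a lowest log2 fold of 1.02 between the groups.

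Whether the doubling ran along whole genes was examined through their exon parts, the stretches between neighbouring annotated exon boundaries. The 338 genes held 1746 exon parts with 10 or more counts over the 4 lanes, a median of 4 per gene. Over summed lanes, 1708 (97.8%) had a higher CPM in ethanol, 1307 (74.9%) were at least doubled and 38 were not higher. An exon part could reach 10 counts through the ethanol lanes, so these shares follow in part from the rule and this minimum. In the other eligible genes, 69.3% of 69619 exon parts were higher and 19.6% were doubled. Every counted exon part was higher in 304 of the 338 genes, and in 2706 (25.5%) of the other genes. In 124 of the 338 genes every counted exon part was doubled, and in 55 exactly 1 was. A gene with 1 counted exon part could be in both numbers. Of the 10624 other genes, these were 60 and 2206. With a minimum of 5 counts per exon part, every counted exon part was higher in 255 of the 338 genes.

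In many genes 1 exon part held most of the counts. The most counted exon part took over 50% of the counts in 221 genes, and it was the last exon part at the 3' end in 216. With it left out, 191 of the 338 genes still had a ratio of 2 or more, 327 were still higher in ethanol, and 147 fell below a ratio of 2, of which some had few counts left (26 of the 338 genes had fewer than 20). Of the 10624 other eligible genes, 350 had a ratio of 2 or more without that exon part and 5647 were higher. The counts among the 338 genes follow in part from the rule. At chr9:13705897-13741849, the most counted exon part held 94.8% of the counts. This gene had 426 and 428 counts in saline and 1203 and 1314 in ethanol, a ratio of 3.14, and a ratio of 1.02 over its remaining 175 counts. Most of the counts behind its doubling were thus in its last exon part, which lies at the 3' end. With lanes summed, however, 3 of its 6 counted exon parts were at least doubled and 5 were higher. The one that was not higher, number 8 from the 5' end, held 89 of the remaining 175 counts. It had 0.879 times the saline CPM. At chr1:177637907-177668206, the ratio went from 2.03 to 1.54 without an exon part that held 95.8% of the counts. At chr18:7872473-7878562, the ratio went from 2.23 to 1.74 over 1745 remaining counts, so the rest of that gene was higher in ethanol and not doubled.

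The 34 genes with an exon part that was not higher included one with many counts at chr5:29410988-29430989. Over its 8 exon parts, this gene had 627 and 637 counts in saline and 1444 and 1479 in ethanol, a fold of 2.49. Its exon part number 5, however, had 189 and 167 counts in saline and 120 and 117 in ethanol, 0.717 times the saline CPM. The exon parts of this gene thus moved in opposite directions. In the next case by counts, exon part 12 of 14 of a gene on chromosome 1 had 25 and 28 counts in saline and 24 and 25 in ethanol, which is no difference at this depth. The remaining exon parts of this kind held 89 counts or fewer over the 4 lanes.

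Along the genes, the log2 fold of exon parts was taken by position, each gene's list of exon parts being divided into 5 equal stretches from the 5' end. In the 338 genes, the medians from the 5' to the 3' end were 1.46, 1.38, 1.31, 1.35 and 1.26. In the other eligible genes they were 0.48, 0.49, 0.47, 0.34 and 0.11. The difference between the first and the last stretch was 0.20 in the chosen genes and 0.37 in the others. Without ethanol lane 6, under which more genes met the rule, it was 0.099 in the chosen genes. Between the lowest and the highest 25%, exon parts of the chosen genes spread from 0.98 to 1.81 in the first stretch and from 0.98 to 1.55 in the last, so the ranges overlapped widely. The difference along the chosen genes was thus small, and smaller where the genes were chosen anew without that lane. It was positive in every setting tried, up to 0.246 with exon parts of 20 or more counts. The first stretch held 259 exon parts of the chosen genes and the last 560, not from the same genes throughout. The chosen genes stood above the others at all 5 positions. No test was made, since the rule used this contrast.

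**Figure D4:**
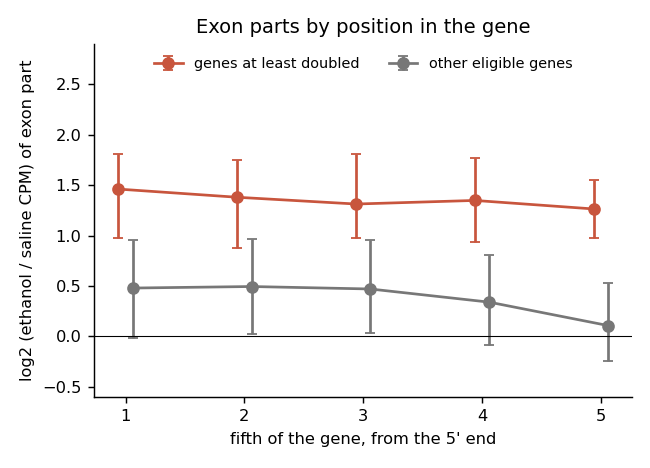
Median log2 of the ethanol over saline CPM of exon parts with 10 or more counts (y axis) by stretch of the gene from the 5' end (x axis), for the 338 chosen genes (red) and the other eligible genes (grey). Bars run from the lower to the upper quartile over exon parts. The red medians run from 1.46 to 1.26 and the grey ones from 0.48 to 0.11.

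The last exon part at the 3' end held a median of 45.1% and 48.4% of a chosen gene's counts in the saline lanes and of 45.4% and 45.2% in the ethanol lanes. These medians overlapped between the groups. Summed over the 338 genes, the last exon part held 52.3% and 52.5% of the counts in saline and 51.1% and 49.9% in ethanol, lower in both ethanol lanes. In the other eligible genes the median share was 53.5% and 53.2% in saline and 48.1% and 47.4% in ethanol, lower in both ethanol lanes than in both saline lanes. In 302 of the 338 genes the last exon part had 20 or more counts. On that exon part alone, 183 of these were doubled and 296 were higher in ethanol. Without the last exon part, 237 of the 338 genes kept a ratio of 2 or more. Over all 10962 eligible genes, 239 met the ratio on the last exon part alone, with 20 or more counts there. Without that exon part, 573 of them did. No minimum was set on the counts that remained, here or for the 237 genes. These numbers therefore cannot be set against those of the last exon part alone. The counts among the 338 genes follow in part from the rule.

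Beyond summing exon parts per gene, the rule used the annotation only to leave genes out. It did so by span, by number of exon parts, by chromosome (MT, Z and W) and by combined identifier. The 338 genes had a median span of 23197 bases, against 9161 in the other eligible genes. They had about as many exon parts (a median of 10 against 9) and a somewhat longer summed exon length (2223 against 1931 bases). The longer span thus lay mainly in the bases between exon parts, mostly introns, with a median of 20942.5 against 6917.5 bases. Exon parts covered a median of 9.38% of the span in the chosen genes and 21.4% in the others. The spans were spread widely, the middle 50% running from 10474 to 49685 bases in the chosen genes and from 3763 to 24935 in the others.

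With the eligible genes ranked by span and divided into 5 equal groups, the share that was doubled was 0.821% in the group with the shortest genes, then 1.46%, 2.60% and 4.38%, and 6.16% in the group with the longest. These were 18, 32, 57, 96 and 135 genes. The share thus rose at each step. The median log2 fold of all genes in these groups also rose, from -0.15 through -0.04, 0.08 and 0.24 to 0.38. Longer genes were thus higher in ethanol over the eligible genes in general, beside the share above the threshold. By number of exon parts the share stayed between 2.37% and 3.88%, with no steady order. The median log2 fold of all genes in those groups nevertheless rose at each step, from 0.02 to 0.21. By summed exon length it also rose at each step, from -0.10 to 0.26. The share by summed exon length ran from 1.92% in the lowest group to 3.92% in the highest, with no steady order between.

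The share that was doubled also depended on depth. By counts over the 4 lanes, it went from 5.88% in the group with the fewest counts (100 to 291) through 4.52%, 3.06% and 1.64% to 0.319% in the group with the most (3452 or more). Only 7 of the 338 genes were in that last group. The median log2 fold of all genes in these groups also went down at each step, from 0.23 to 0.02. Counting error is wider at fewer counts, and its part in this order was not tested. By level per kilobase in saline, it went from 9.44% in the lowest group to 0.0456% (1 gene) in the highest. Since the ratio divides by the saline level, this last order follows in part from the rule. Within each of the 5 groups by counts, the chosen genes still had the longer median span, with 26166 against 6225 bases in the lowest group and 20001 against 11374 in the highest. With 1000 or more counts, an alternative chosen after seeing the data, the median span was 28499 bases in 77 chosen genes and 10765 in 5500 others. The summed exon length was also longer in these chosen genes, with a median of 3340 against 2239 bases.

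**Figure D5:**
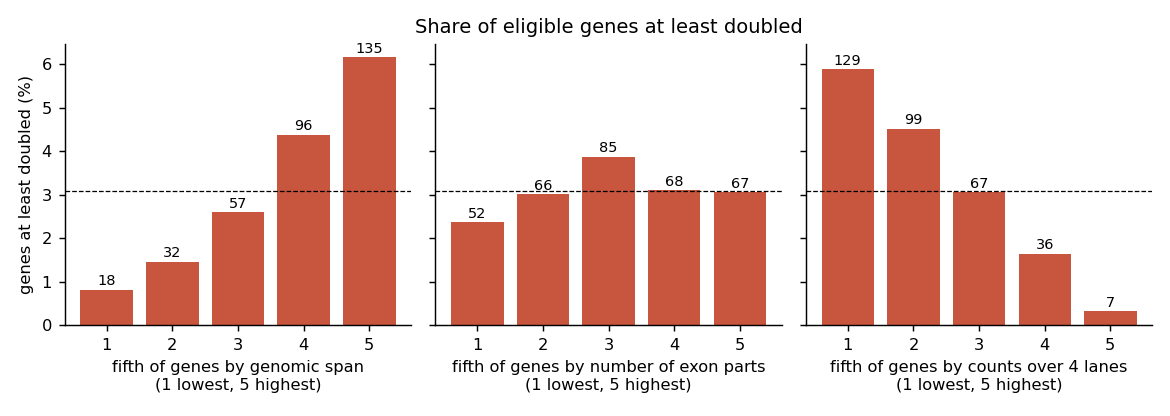
Percent of eligible genes that were at least doubled (y axis) in 5 equal groups of genes by genomic span (left), number of exon parts (middle) and counts over the 4 lanes (right), from the lowest to the highest group (x axis). The number of genes stands above each bar, and the dashed line marks 3.08%, the share over all eligible genes. The share rises from 0.821% to 6.16% with span and goes down from 5.88% to 0.319% with counts.

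By chromosome, 179 of 4263 eligible genes were doubled on chromosomes 1 to 5 (4.20%), 54 of 1560 on chromosomes 6 to 10 (3.46%) and 90 of 3493 on chromosomes 11 and above (2.58%). On unplaced scaffolds and the like, 15 of 1646 were doubled (0.911%). The median span of eligible genes went down in the same order, from 17238 through 13693.5 and 7953 to 3480 bases. Chromosome 1 held the most of the genes, 66 of 1270 (5.20%, Wilson interval 4.11% to 6.56%). Chromosome 12, with 15 of 237, had a share of 6.33% (Wilson interval 3.87% to 10.2%), which overlaps that of chromosome 1. Both intervals treat genes as independent, although some of the genes were neighbours. They also take no account of these chromosomes being picked for a high count or share. On the plus strand lay 175 of the 338 genes.

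Some of the genes lay next to each other. For 57 of the 338 genes (16.9%), another of them began or ended within 100 kb, and 1083 of the 10624 other eligible genes (10.2%) had one as near. The 57 genes formed 24 groups of 2 and 3 groups of 3. Genes are denser in some regions than in others, so this is a count and not a test. The other genes also include most of the 1646 eligible genes on unplaced scaffolds and the like. Only 15 of the 338 lay there, so most such genes had no chosen gene on their scaffold, which lowers the share of 10.2%. The nearest pair lay 5588 bases apart on chromosome 6. Its gene at chr6:27848491-28021075 had 2.31 and 2.40 CPM in saline and 5.36 and 5.35 CPM in ethanol. Its neighbour at chr6:28026663-28057664, on the opposite strand, had 11.6 and 10.4 CPM in saline and 23.8 and 25.3 CPM in ethanol. Their ratios were 2.23 and 2.06, beside a median of 2.24 over the 338 genes.

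A pair on the plus strand of chromosome 11 lay 7186 bases apart. Its first gene, at chr11:9891256-9904371, had 2.83 and 2.49 CPM in saline and 10.03 and 8.42 CPM in ethanol. Its second, at chr11:9911557-9937723, had 3.85 and 3.69 CPM in saline and 9.74 and 7.98 CPM in ethanol. In both, the ethanol values lay above the saline values and lane 5 above lane 6. Pairs on chromosome 14 lay 5668 and 7565 bases apart and a pair on chromosome 18 lay 9387 bases apart. Of the 30 nearest pairs, 18 had both genes on the same strand. Some genes stood in 2 of these pairs, and no such share was taken over other neighbouring genes. Because the counts ignore strand, reads of overlapping genes on opposite strands cannot be told apart.

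The genes left out by the rule were doubled at other rates. With 100 or more counts, 35 of 572 genes on Z and W met the ratio (6.12%), 31 of 620 genes with 1 exon part, 6 of 73 with a span of 300000 bases or more and 5 of 296 combined identifiers. Of 1245 genes in the authors' table of exons with altered usage, 8 did, and of 28 mitochondrial genes none did. In all, 79 of 2628 genes left out met the ratio (3.01%), close to the 3.08% of the eligible genes.

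The number of genes depended on the scaling of the lanes. With TMM factors it was 239, and with the size factors of DESeq2 it was 223, all of them among the 338. With CPM over all counts, mitochondrial ones included, it was 792. The median log2 fold of all eligible genes was 0.10 with CPM over non-mitochondrial counts, 0.01 with TMM, -0.01 with DESeq2 and 0.36 with CPM over all counts. The genes that met the rule under each had medians of 1.34, 1.32, 1.33 and 1.38, in the same order.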

How the data were processed

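RNA-seq was carried out on pooled chick cranial headfolds, with 2 saline and 2 ethanol lanes. The authors trimmed the reads, aligned them to Gallus gallus 5.0 with Bowtie2 (version not given in the sources used here) and counted fragments per exon part with featureCounts 1.5.2, without regard to strand. They deposited raw counts of 220717 exon parts. The deposited table of exons with altered usage, whose other columns hold the authors' DEXSeq results, was used only for its exon identifiers.

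Counts were summed per gene and scaled to CPM over non-mitochondrial counts. The genes and lists were chosen with earlier results of these data known. Each gene was given as the ratio of the lower ethanol to the higher saline lane and as the fold of summed lanes, with exact binomial 95% intervals. Lanes of a group were compared by exact binomial tests, after a check on simulated data. Genes were named by rule: 2 identifiers, the 10 highest ratios and levels, the nearest to the threshold, those lost without their most counted exon part, and the nearest neighbours. Lists of cell type markers and pathways could not be applied, as none of the 338 identifiers matched a symbol. Shares by chromosome have Wilson intervals.

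TMM factors came from edgeR 4.0.16 and size factors from DESeq2 1.42.0 in R 4.3.3, and the rest from Python 3.11.15 (scipy 1.17.1, numpy 2.4.6, matplotlib 3.10.9 and pandas 2.3.3). Lanes held 15388474 to 20951322 counts. Scaling, count minimum, ratio, exon parts and lanes were varied.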

Additional observations from a re-analysis of the deposited data

How the results depend on the processing

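The count of 338 genes became 223 with DESeq2 size factors, 792 with CPM over all counts, 553 without a count minimum, 1296 at a ratio of 1.5 and 22 at a ratio of 3. It became 591 with the lanes of each group summed. With the last exon part left out and no minimum on the remaining counts, it became 573. That alternative was chosen after seeing the data, and 237 of the 338 remained under it. It was 239 with TMM, 416 and 262 at minimums of 50 and 200 counts, 449 with the saline lanes summed and 417 with no gene left out. On the last exon part only, with 20 or more counts there, it was 239 (183 of the 338 remained). With any 1 lane left out it was 450 to 496, since fewer lanes make the rule easier to meet. The genes still doubled without their most counted exon part numbered 118 (52.9% of the genes that then met the rule) with DESeq2 size factors, 520 (65.7%) with CPM over all counts and 294 to 324 (60.0% to 67.3%) with 1 lane left out, against 191 (56.5%). Those with every counted exon part higher numbered 201 (90.1%) and 715 (90.3%) under the same scalings, against 304 (89.9%). With 1 lane left out they numbered 371 to 415 (75.7% to 83.7%). Of the 338 genes, 255 had every counted exon part higher at a minimum of 5 counts per exon part, and 325 at 20. The median log2 fold was 1.38 with CPM over all counts, 1.21 with summed lanes and 1.27 to 1.29 with 1 lane left out, and the ratio of summed CPM 2.39 to 2.43 with 1 lane left out. The difference between the first and last stretch of the gene was 0.099 to 0.16 with 1 lane left out. Neighbours numbered 36 within 50 kb (10.7%) and 124 within 500 kb (36.7%), against 6.17% and 30.0% of the other eligible genes. Genes on unplaced scaffolds lower these last shares too. With 1000 or more counts the median summed exon length was 3340 bases, against 2239 in the others. The genes that differed between the ethanol lanes numbered 21, with 23 under TMM totals and 15 at a limit of 0.05. The cause of these shifts was not tested. No paired analysis was possible because the rule gives no test between the groups and the labels tie no saline lane to an ethanol lane.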
